A study of Homo sapiens with 8 samples.

Results

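The 37 genes encoded by the human mitochondrial genome were followed through 2 knockdown experiments in A549 cells. They were taken as the rows of both deposited tables whose Ensembl identifier maps in GENCODE release 29 to a symbol starting with MT-, and they make up 37 of the 66206 rows of each table. By annotated type they are 13 mRNAs, 2 rRNAs and 22 tRNAs. On the reference sequence 28 lie on the plus strand and 9 on the minus strand, the latter being MT-ND6 and 8 tRNAs.

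The mitochondrial genome is a small circular DNA molecule kept in many copies per cell. Both of its strands are transcribed by the mitochondrial RNA polymerase POLRMT into long precursors, which are cut into single RNAs, largely at the tRNAs that lie between the other genes. The rRNAs and tRNAs serve the mitochondrial ribosome, and the mRNAs encode core subunits of the respiratory chain and of ATP synthase. Because neighbouring RNAs start out on shared precursors, their steady levels also reflect how long each one lasts. LRPPRC with SLIRP, and PNPT1 with SUPV3L1, are nuclear-encoded factors known to stabilise and to degrade mitochondrial RNA.

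A549 is a line of human lung adenocarcinoma cells, and all 8 libraries are of total RNA from 100000 such cells transfected with the RNA-iMAX reagent. One pair of libraries received 25 pmol of a scramble LNA gapmer and a second pair 25 pmol of gapmer targeting LY6K-AS, a long non-coding RNA. Gapmers are antisense oligonucleotides that pair with an RNA and let RNase H cut it. The other two pairs received 40 pmol of scramble siRNA or 40 pmol of siRNA against YWHAG, which encodes the adaptor protein 14-3-3 gamma. The LY6K-AS libraries carry the titles LNA1 and LNA3 and the YWHAG libraries si1 and si2. Whether the members of a pair received different oligonucleotides is not given, nor is it given whether paired libraries came from separate cultures, so the p-values below measure the spread between these libraries, which may be technical. The siRNA controls are named 2 and 3, after their columns.

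Read totals recovered from the RPKM ran from 26179563 to 34560192 per library. The transcripts targeted were lower in the libraries labelled as knockdowns. LNCOC1, which is annotated antisense to LY6K and stands here for LY6K-AS, was counted with 34 and 17 reads in LNA controls 1 and 2 but 3 and 8 in the gapmer-treated libraries. YWHAG stood at 163 and 158 RPKM in the siRNA controls and at 13.5 and 4.91 in the knockdowns. Of the markers of A549 cells, KRT8, KRT18, AKR1B10, ALDH1A1 and NQO1 were at 230 RPKM or more in all 8 libraries, while the epithelial genes EPCAM, CDH1 and KRT19 were lower, at 1.14 to 10.6, 4.42 to 13.5 and 4.26 to 119.95 RPKM, with KRT19 at 37.4 and 39.3 in the LNA controls and 4.26 and 5.43 in the siRNA controls. The alveolar genes SFTPB, SFTPC and NKX2-1 had at most 7 reads. Markers of immune cells were at or near 0, with PTPRC at 0 to 1 read, CD3E at 0 and CD68 at 1 to 6 reads. Endothelial markers had few reads, with PECAM1 at 1 to 8, VWF at 0 to 3 and CDH5 at 0 to 13. Of the fibroblast markers DCN had at most 1 read, COL3A1 had 11 to 29 reads, and COL1A1 ranged from 0.709 to 9.41 RPKM.

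In genome order the rRNAs come first, MT-RNR1 at chrM:648-1601 and MT-RNR2 at chrM:1671-3229 (hg38), each next to tRNAs with no base between. The mRNAs follow, from MT-ND1 at chrM:3307-4262 to MT-CYB at chrM:14747-15887. MT-ATP8 and MT-ATP6 share the 46 bases at chrM:8527-8572, which are 22.2% of the length of MT-ATP8, and MT-ND4L and MT-ND4 share 7 bases. The 7 tRNAs below are among those whose knockdown and control values did not overlap in 1 of the experiments, and are shown as examples from both strands and both experiments. The sequences are those of the GENCODE 29 transcripts, written 5′ to 3′ with DNA letters. Capitals mark the anticodon, which was located by its letters in the middle of each sequence. MT-TI and MT-TQ share 3 bases on opposite strands, at chrM:4329-4331.
MT-TI: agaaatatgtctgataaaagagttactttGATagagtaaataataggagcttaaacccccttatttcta
MT-TQ: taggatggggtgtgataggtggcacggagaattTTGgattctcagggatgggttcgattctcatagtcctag
MT-TM: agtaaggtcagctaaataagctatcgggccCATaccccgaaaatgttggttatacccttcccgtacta
MT-TC: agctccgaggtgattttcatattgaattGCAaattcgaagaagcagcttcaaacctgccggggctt
MT-TP: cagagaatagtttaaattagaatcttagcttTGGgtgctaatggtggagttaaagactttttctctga
MT-TY: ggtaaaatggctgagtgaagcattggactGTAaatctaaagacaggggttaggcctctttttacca
MT-TT: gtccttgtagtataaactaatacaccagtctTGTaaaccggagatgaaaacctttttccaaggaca
MT-TC, MT-TQ, MT-TP and MT-TY are on the minus strand, at chrM:5761-5826, chrM:4329-4400, chrM:15956-16023 and chrM:5826-5891. MT-TI, MT-TM and MT-TT are on the plus strand, at chrM:4263-4331, chrM:4402-4469 and chrM:15888-15953.

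The 37 genes together took 8.43 and 6.43% of the reads in LNA controls 1 and 2, and 8.37 and 4.12% in LY6K-AS knockdowns 1 and 2. Knockdown 1 lay within the range of its controls and knockdown 2 below both. The means were 7.43 ± 1.42% and 6.25 ± 3.005% (SD, n = 2), a difference of −1.18 percentage points (exact permutation test, two-sided, p = 0.667, where 2 against 2 libraries cannot go below 0.333). Without knockdown 2 the difference was 0.943 and without knockdown 1 it was −3.31. In the siRNA experiment the share was 15.3 and 18.2% in controls 2 and 3, and 13.99 and 18.2% in YWHAG knockdowns 1 and 2. The pairs overlapped, with means of 16.7 ± 2.11% and 16.1 ± 2.98% (SD, n = 2) and a difference of −0.646 percentage points (exact permutation test, two-sided, p = 0.667). That difference was 0.844 without control 3 and 1.46 without knockdown 1, so its sign rested on single libraries. In bulk RNA, fewer cells of a type and less RNA per cell cannot be told apart, and a share also moves with the other RNAs in the library.

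**Figure D1:**
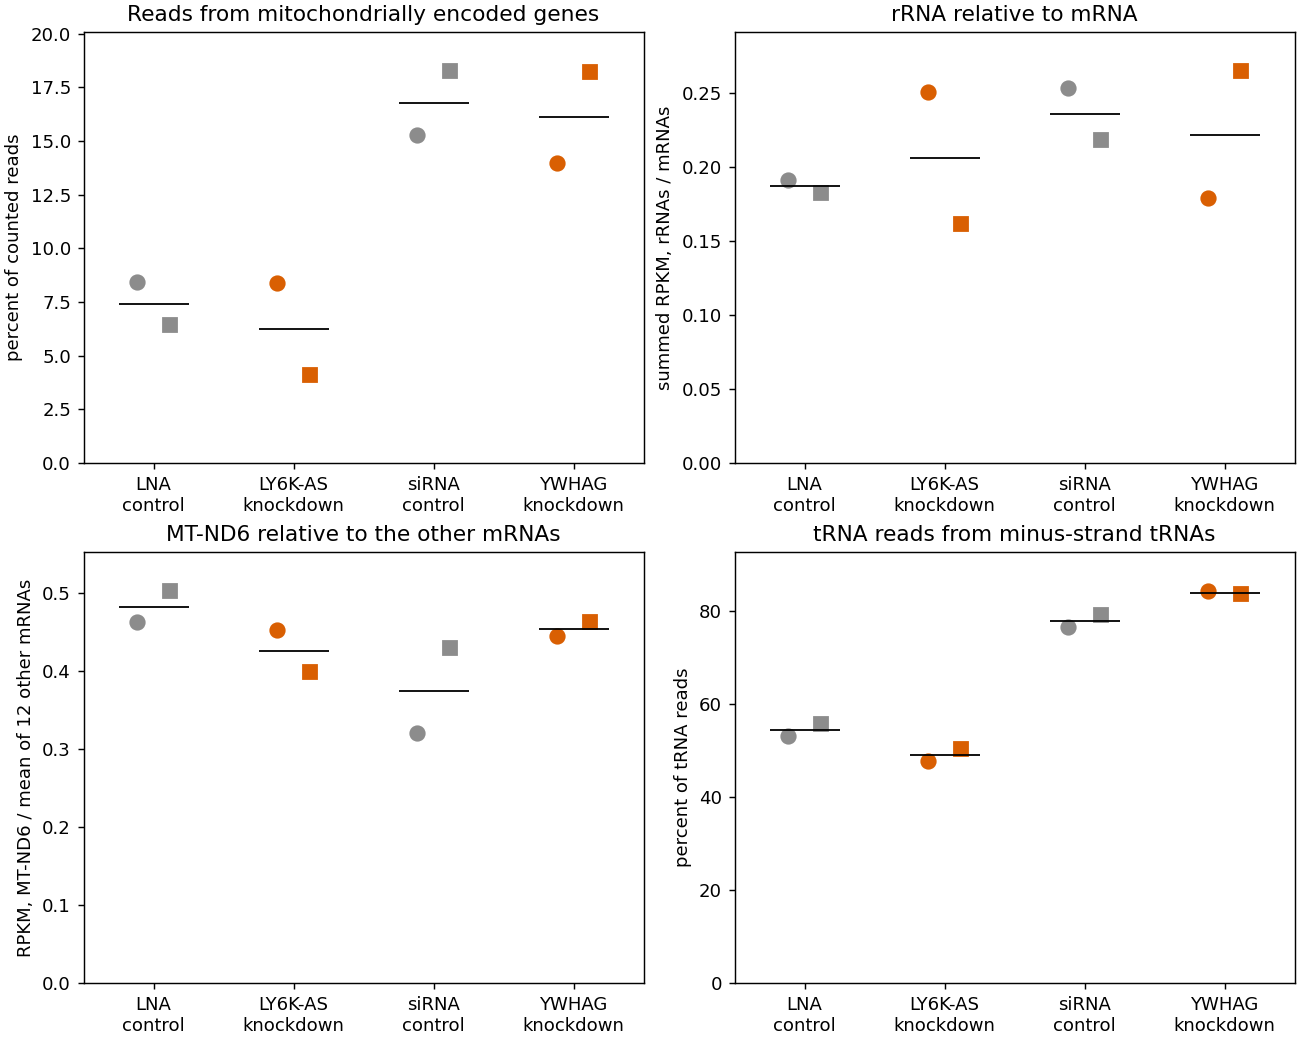
The panels give 4 measures for each library (points; circles the first and squares the second library of a pair) with the mean of each pair (line): percent of reads from the 37 mitochondrially encoded genes, summed RPKM of the 2 rRNAs over that of the 13 mRNAs, MT-ND6 RPKM over the mean of the 12 other mRNAs, and percent of tRNA reads that came from the 8 minus-strand tRNAs. In the top panels the knockdown libraries lie far apart, and in the bottom right panel the YWHAG knockdowns (84.1 and 83.5%) lie above their controls (76.5 and 79.1%).

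The first comparison asked how mitochondrial RNAs stood after LY6K-AS depletion. Set against the control mean, the 2 knockdown libraries did not behave alike. In knockdown 2 all 32 members that had reads in the LNA table were below the mean of the controls, with a median log2 ratio of −0.94, whereas in knockdown 1 26 of the 32 were above it, with a median of 0.13. Against LNA control 1 alone, the higher control for each mRNA, knockdown 1 was lower for each mRNA except MT-CO1.

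MT-RNR2, the rRNA of the large mitochondrial ribosomal subunit, had 11643 and 8528 RPKM in LNA controls 1 and 2 and 13863 and 4904 in LY6K-AS knockdowns 1 and 2. MT-RNR1, the rRNA of the small subunit, had 1204 and 820 RPKM in the controls and 1634 and 526 in the knockdowns. For both rRNAs knockdown 1 was the highest of the 4 libraries and knockdown 2 the lowest, so the groups overlapped. The log2 change of MT-RNR2 was −0.27 ± 0.56 (SE; limma adjusted p = 0.785) and that of MT-RNR1 −0.10 ± 0.60 (limma adjusted p = 0.929).

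Among the 7 mRNAs of complex I, the NADH dehydrogenase that feeds electrons into the chain, MT-ND1 had 5269 and 4077 RPKM in the LNA controls and 5063 and 2384 in the knockdowns. MT-ND2 had 3065 and 2482 RPKM in the controls against 2362 and 1382 in the knockdowns. It was the one mRNA of the 13 with both knockdown libraries under both controls. Its log2 change was −0.61 ± 0.31 (SE) and did not pass (limma adjusted p = 0.295). MT-ND3 had 2388 and 1831 RPKM in LNA controls 1 and 2 against 2193 and 1149, and MT-ND4 had 9097 and 6781 against 8528 and 4026. MT-ND4L had 3012 and 1939 RPKM in those controls against 2895 and 1385, and MT-ND5 had 2670 and 2110 against 2473 and 1284. In each of these 4 genes knockdown 1 fell between the controls and knockdown 2 below them. MT-ND6, the complex I mRNA from the other strand, had 2495 and 2056 RPKM in the controls and 2247 and 1084 in the knockdowns, with a log2 change of −0.54 ± 0.39 (SE; limma adjusted p = 0.430).

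MT-CYB, the cytochrome b of complex III, had 4550 and 3510 RPKM in the LNA controls and 4303 and 2932 in the LY6K-AS knockdowns. The 3 mRNAs of complex IV, cytochrome c oxidase, were among the most abundant. MT-CO1 had 8069 and 6585 RPKM in the controls and 8261 and 4901 in the knockdowns. MT-CO2 had 8171 and 6317 RPKM against 7419 and 4420, and MT-CO3 9196 and 6708 against 8093 and 4157. Knockdown 2 was the lowest library for all 4 of these genes, and knockdown 1 was inside the range of the controls except for MT-CO1, where it was the highest. Of the ATP synthase subunits, MT-ATP6 had 7981 and 6177 RPKM in the controls and 6911 and 3960 in the knockdowns, and MT-ATP8 had 1267 and 678 against 1173 and 658.

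The lower level in LY6K-AS knockdown 2 was not of 1 size across the mRNAs. Taken against the control mean, the 7 complex I mRNAs stood at 0.476 to 0.559 fold, with MT-ND6 lowest, while MT-CYB stood at 0.728, MT-ATP8 at 0.677, MT-CO1 at 0.669 and MT-CO2 at 0.610. MT-ATP6 and MT-CO3, at 0.559 and 0.523, were level with the complex I mRNAs. These differences between genes rest on 1 library and were not tested. The ratio of MT-CYB to MT-ND1 RPKM, which does not depend on the library total, was 0.864 and 0.861 in the LNA controls, 0.850 in knockdown 1 and 1.23 in knockdown 2. The siRNA controls had ratios of 0.759 and 0.654, and the YWHAG knockdowns 0.687 and 0.674. Knockdown 2 of LY6K-AS had the highest MT-CYB relative to MT-ND1 of all 8 libraries. The ratio was not a planned measure, and in that library it restates the fold values above, where MT-CYB was the mRNA least lowered.

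**Figure D2:**
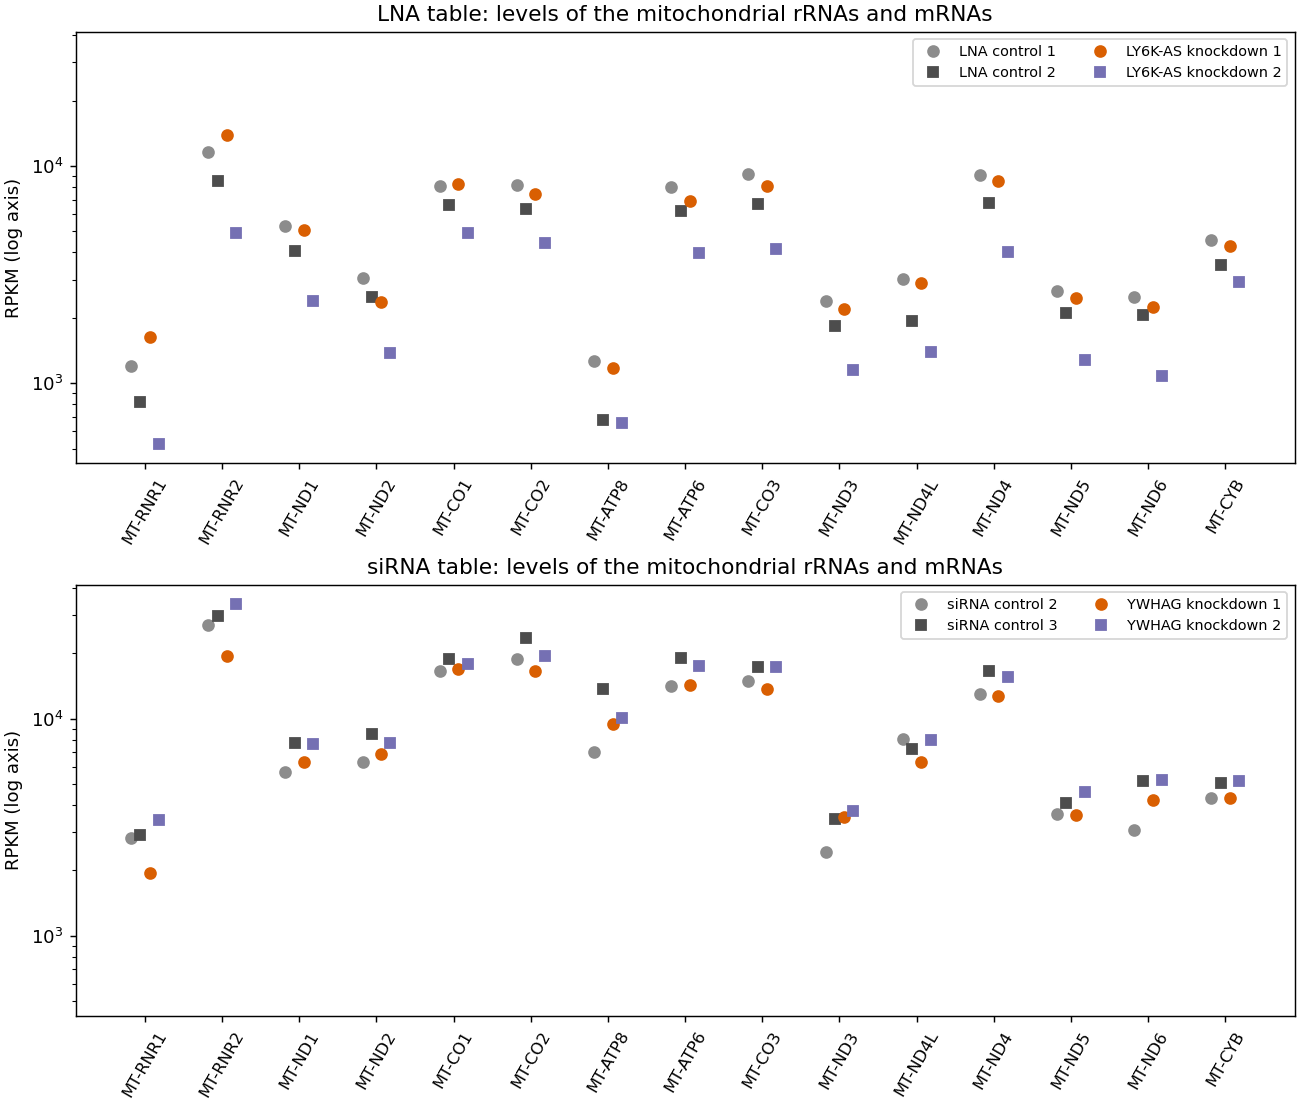
RPKM (log axis) of the 2 mitochondrial rRNAs and 13 mRNAs in each library, LNA experiment above and siRNA experiment below, in genome order. Squares of LY6K-AS knockdown 2 lie at the bottom for each gene in the upper panel, and MT-CO1, MT-CO2, MT-CO3, MT-ATP6 and MT-ND4 are the 5 highest mRNAs in all 8 libraries.

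The order of the mRNAs was steadier than their level. MT-CO1, MT-CO2, MT-CO3, MT-ATP6 and MT-ND4 were the 5 highest of the 13 in all 8 libraries, although which of the 5 led changed from library to library and neighbours among them often lay closer than paired libraries did. MT-ATP8 was the lowest mRNA in the 4 LNA libraries and MT-ND3 in the 4 siRNA libraries. The highest mRNA exceeded the lowest 7.26 to 10.0 fold in the LNA table and 4.77 to 7.70 fold in the siRNA table. MT-ATP8 stood differently in the 2 tables: its RPKM was 0.110 to 0.170 of that of MT-ATP6 in the LNA libraries and 0.499 to 0.719 in the siRNA libraries. The 2 tables were normalized separately, but this ratio does not depend on the library total, and the LNA values had been rescaled to merged exon length. How each table treated reads in the 46 shared bases is not given, and the cause of the gap was not tested.

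Of the tRNAs, 15 had at least 20 reads in each LNA library. MT-TY, the tyrosine tRNA, was the most abundant, with 1605 and 1328 RPKM in the LNA controls and 1180 and 628 in the LY6K-AS knockdowns. MT-TT, the threonine tRNA, had 86.5 and 61.5 RPKM against 56.7 and 27.0. For both, the 2 knockdown libraries lay under both controls, with log2 changes of −0.76 ± 0.34 for MT-TY (SE; limma adjusted p = 0.254) and −0.88 ± 0.40 for MT-TT (limma adjusted p = 0.255). MT-TL1, a leucine tRNA, had 762 and 574 RPKM in the controls and 696 and 325 in the knockdowns. MT-TH, the histidine tRNA, had 95.6 and 61.2 against 142 and 67.1, and with MT-TR was 1 of 2 members whose fitted log2 change was above 0. The other 11 tRNAs with 20 reads or more each had overlapping groups, with knockdown 2 the lowest library for all of them.

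Knockdown 1 was the highest library for 5 of these 11. MT-TF, the phenylalanine tRNA, had 138 and 71.9 RPKM in LNA controls 1 and 2 against 153 and 43.8 in LY6K-AS knockdowns 1 and 2, and MT-TP, the proline tRNA, 154 and 112 against 165 and 47.1. MT-TG, for glycine, had 61.0 and 40.9 RPKM against 62.4 and 34.8, MT-TR, for arginine, 18.6 and 15.1 against 23.5 and 14.4, and MT-TL2, for leucine, 31.5 and 25.4 against 37.1 and 15.5. For the other 6 knockdown 1 lay between the controls. MT-TV, for valine, had 74.2 and 50.3 RPKM against 69.2 and 23.5, MT-TI, for isoleucine, 112 and 84.9 against 101 and 39.9, and MT-TM, for methionine, 51.95 and 38.5 against 49.99 and 25.7. MT-TC, for cysteine, had 169.9 and 110.6 RPKM against 159.7 and 73.6, MT-TS2, for serine, 196 and 151 against 192 and 88.3, and MT-TE, for glutamate, 57.6 and 40.3 against 49.8 and 20.6. Knockdown 2 stood at 0.355 to 0.858 fold of the control mean over these 15 tRNAs.

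By limma, 0 of the 32 members tested passed an adjusted p of 0.05 after LY6K-AS knockdown, as did 0 of all 14662 genes tested (0.0%), and the count was also 0 of 32 with limma voom on the recovered reads. None of the 32 had an unadjusted p under 0.05, against 25.3% of all genes tested. Their adjusted p-values ran from 0.254 to 0.929. The groups did not overlap for 3 members, MT-ND2, MT-TY and MT-TT, all lower, whereas 62.0% of all genes tested had groups that did not overlap. The fitted log2 change was below 0 for 30 of the 32, with a median of −0.40, against 49.7% of all genes and a median of 0.00. One library decided this picture: with knockdown 1 left out, 23 of the 32 passed (9 mRNAs, both rRNAs and 12 tRNAs, all lower), and so did 55.3% of all genes tested, while with knockdown 2 left out 0 of the 32 passed, where 32.4% of all genes did, and the median of the mRNAs was 0.07 in place of −0.41. A lone knockdown library is assumed in that fit to vary as the controls do. Over all genes the 2 knockdowns also differed more from each other (SD of their log2 difference, 0.40) than the controls did (0.16).

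**Figure D3:**
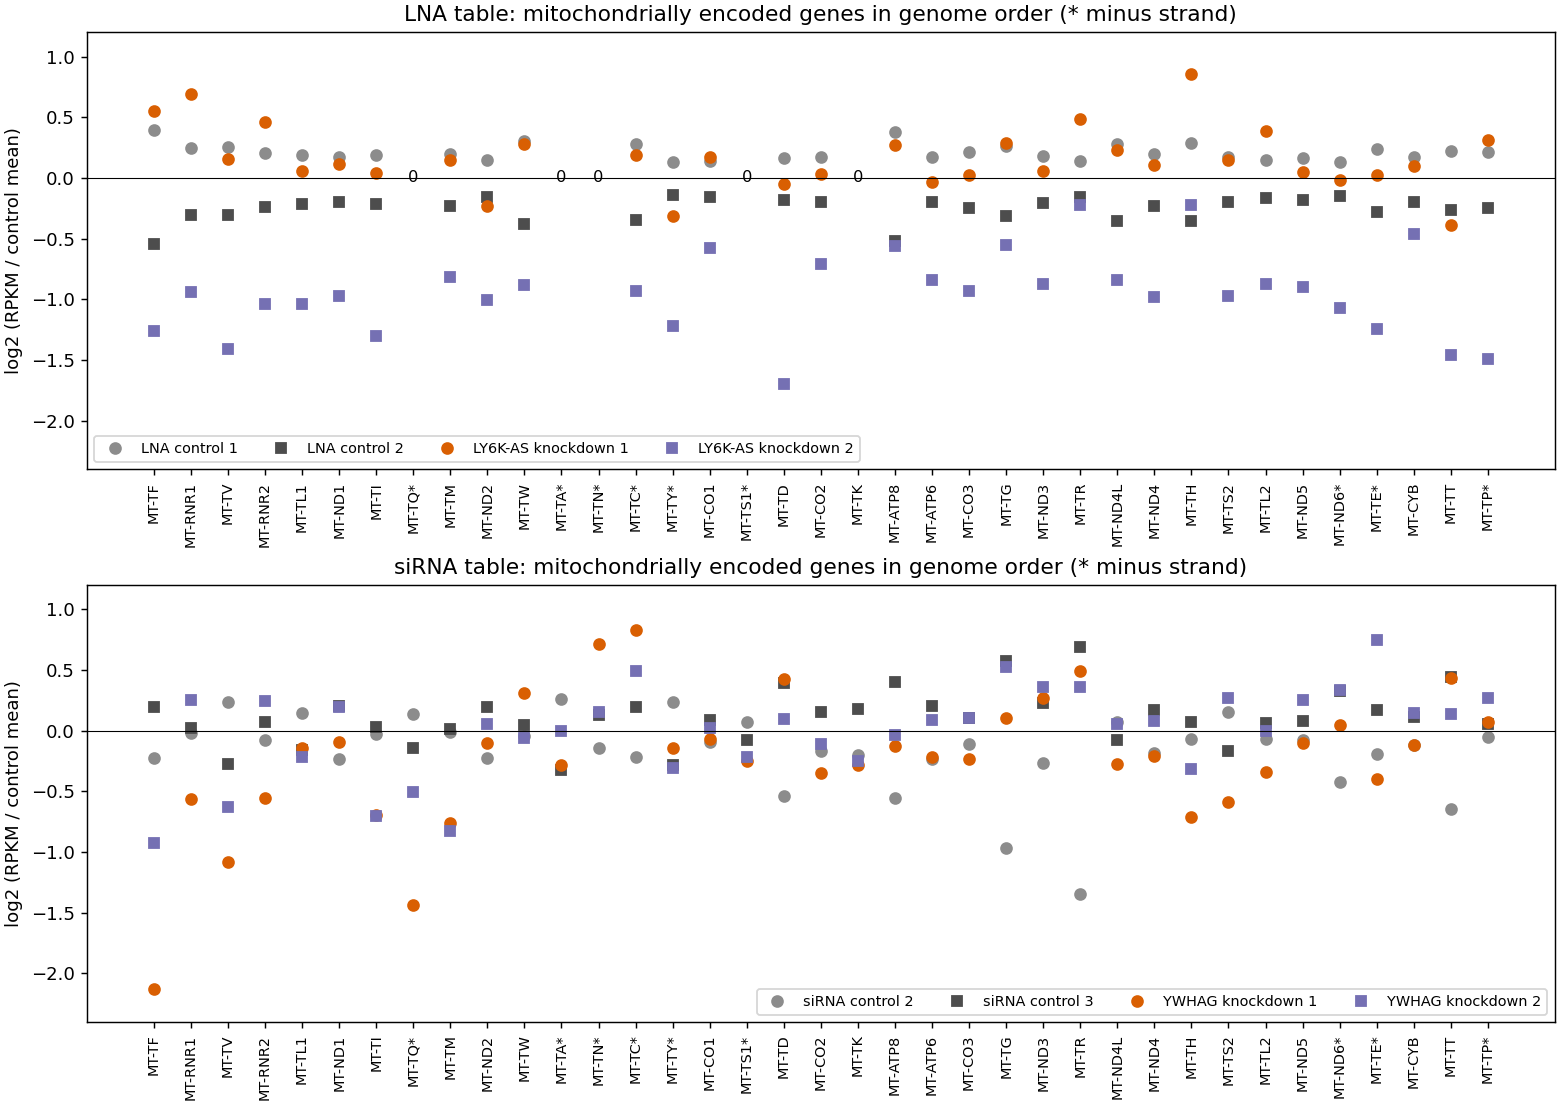
Log2 of each library's RPKM over the mean of its 2 controls for the 37 genes in genome order, LNA experiment above and siRNA experiment below; an asterisk marks minus-strand genes and a 0 the 5 tRNAs listed at 0 in all LNA libraries. In the upper panel the purple squares of LY6K-AS knockdown 2 lie below the line for all 32 genes shown, and in the lower panel mRNAs stay near the line while tRNAs scatter.

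The second comparison asked the same of YWHAG depletion. The mRNAs and rRNAs showed no common shift. The median log2 change of the 13 mRNAs was −0.01, with 5 above 0 and 8 below, and the range over them was −0.22 to 0.33. This median was −0.15 to 0.15 with 1 library left out, and over all genes tested it was −0.05.

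MT-RNR2 had 26943 and 29784 RPKM in siRNA controls 2 and 3 and 19321 and 33539 in YWHAG knockdowns 1 and 2. MT-RNR1 had 2824 and 2905 RPKM against 1941 and 3419. Both rRNAs were lowest in knockdown 1 and highest in knockdown 2. Their log2 changes were −0.15 ± 0.28 for MT-RNR2 (SE; limma adjusted p = 0.813) and −0.15 ± 0.29 for MT-RNR1 (limma adjusted p = 0.817).

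Among complex I mRNAs, MT-ND1 had 5698 and 7728 RPKM in the siRNA controls and 6290 and 7677 in the YWHAG knockdowns, and MT-ND2 6337 and 8490 against 6892 and 7682. MT-ND3 had 2437 and 3442 RPKM in the controls and 3538 and 3764 in the knockdowns. It was the one mRNA whose groups did not overlap, with a log2 change of 0.33 ± 0.20 (SE) that did not pass (limma adjusted p = 0.454). MT-ND4 had 12953 and 16551 RPKM in the controls and 12752 and 15613 in the knockdowns, MT-ND4L 8019 and 7244 against 6297 and 7938, and MT-ND5 3651 and 4078 against 3599 and 4590. MT-ND6 had 3064 and 5171 RPKM in the controls and 4237 and 5193 in the knockdowns, a log2 change of 0.24 ± 0.28 (SE; limma adjusted p = 0.705). Control 2 was the low library for MT-ND1, MT-ND2, MT-ND3 and MT-ND6.

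MT-CYB had 4325 and 5058 RPKM in the siRNA controls and 4321 and 5171 in the YWHAG knockdowns. MT-CO1 had 16549 and 18801 RPKM against 16876 and 17890. MT-CO2 had 18768 and 23413 RPKM against 16593 and 19517, and MT-CO3 14878 and 17296 against 13704 and 17267. The groups overlapped for all 4, and MT-CO2 had the lowest fitted change of the mRNAs. MT-ATP6 had 14058 and 19012 RPKM in the controls and 14246 and 17511 in the knockdowns, and MT-ATP8 had 7022 and 13665 against 9442 and 10062, both knockdowns between the controls.

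The tRNAs varied more. Of the 22, 20 had at least 20 reads in each siRNA library. Both knockdowns lay under both controls for MT-TI, MT-TM, MT-TQ, MT-TV, MT-TH, MT-TS1 and MT-TK, and above them for MT-TC, MT-TN and MT-TP. Over all 22 tRNAs 3 were higher and 8 lower without overlap. Of all genes tested 20.4% were higher and 30.8% lower without overlap, so such gaps were about as common among the tRNAs.

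MT-TM, the methionine tRNA, had 101 and 103 RPKM in the siRNA controls and 60.4 and 57.5 in the YWHAG knockdowns. MT-TI, the isoleucine tRNA, had 82.0 and 84.9 RPKM against 51.6 and 51.1. These 2 tRNAs, whose genes are separated by MT-TQ on the other strand, had close values within each pair and a gap between the pairs. Their log2 changes were −0.78 ± 0.12 for MT-TM (SE; limma adjusted p = 0.179) and −0.69 ± 0.12 for MT-TI (limma adjusted p = 0.183), and over the fits with 1 library left out they ran from −0.82 to −0.75 and from −0.72 to −0.66. The reads behind MT-TM were 237 and 242 in siRNA controls 2 and 3, against 142 and 132 after knockdown.

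MT-TQ, the glutamine tRNA between them, had 87.0 and 71.7 RPKM in the siRNA controls and 29.3 and 56.0 in the YWHAG knockdowns. MT-TV, the valine tRNA that lies between the rRNAs, had 397 and 278 RPKM against 159 and 218. MT-TH had 102 and 113 RPKM against 65.4 and 86.3. In all 3 tRNAs knockdown 1 was the lower knockdown library. The log2 changes were −0.94 ± 0.32 for MT-TQ (SE; limma adjusted p = 0.278), −0.83 ± 0.25 for MT-TV (0.259) and −0.51 ± 0.18 for MT-TH (0.289). MT-TF, the phenylalanine tRNA at the start of the genes in map order, had the lowest fitted change, −1.19 ± 0.32 (SE; limma adjusted p = 0.248), from 15 and 20 control reads against 4 and 9 knockdown reads. It is below the minimum of 20 reads set for naming a tRNA and is named after its value was seen. MT-TR, the other tRNA below that minimum, had 10 and 41 control reads against 36 and 32 knockdown reads. Its groups overlapped, and its log2 change was 0.67 ± 0.59 (SE; limma adjusted p = 0.606). MT-TS1, a serine tRNA, and MT-TK, the lysine tRNA, had 32 to 48 reads per library, with 16.8 and 15.1 RPKM in siRNA controls 2 and 3 against 13.4 and 13.7 for MT-TS1 and 15.3 and 19.9 against 14.5 and 14.8 for MT-TK. Their log2 changes were −0.22 ± 0.13 and −0.24 ± 0.17 (SE; limma adjusted p = 0.455 and 0.513).

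The other plus-strand tRNAs with 20 reads or more had overlapping groups. MT-TL1 had 948 and 765 RPKM in siRNA controls 2 and 3 against 777 and 735 in the YWHAG knockdowns, and MT-TT 86.1 and 183 against 181.5 and 148. MT-TG had 13.2 and 38.4 RPKM against 27.7 and 37.1, and MT-TD, the aspartate tRNA, 9.81 and 18.8 against 19.1 and 15.3. Control 2 was the low library for MT-TT, MT-TG and MT-TD, while for MT-TL1 it was the highest. MT-TS2 had 32.0 and 25.6 RPKM against 19.1 and 34.7, MT-TL2 16.7 and 18.4 against 13.9 and 17.5, and MT-TW, the tryptophan tRNA, 13.6 and 14.5 against 17.4 and 13.5.

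On the minus strand, MT-TC, the cysteine tRNA, had 1547 and 2055 RPKM in the siRNA controls and 3196 and 2524 in the YWHAG knockdowns. MT-TN, the asparagine tRNA, had 200 and 242 RPKM against 363 and 245. MT-TP, the proline tRNA and the most abundant of the 22 in this table, had 3030 and 3272 RPKM against 3311 and 3799. For MT-TC both knockdowns were above both controls by less than either pair's own spread, and for MT-TN knockdown 2 stood just above the higher control. The log2 changes were 0.67 ± 0.21 for MT-TC (SE; limma adjusted p = 0.262), 0.44 ± 0.23 for MT-TN (0.407) and 0.17 ± 0.14 for MT-TP (0.570). MT-TY, which is also on the minus strand and shares 1 base with MT-TC, had 1327 and 924 RPKM in the controls and 1016 and 907 in the knockdowns, and its groups overlapped. So did those of MT-TE, with 113 and 145 RPKM against 97.7 and 217, and of MT-TA, the alanine tRNA, with 20.2 and 13.5 against 13.8 and 16.8.

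**Figure D4:**
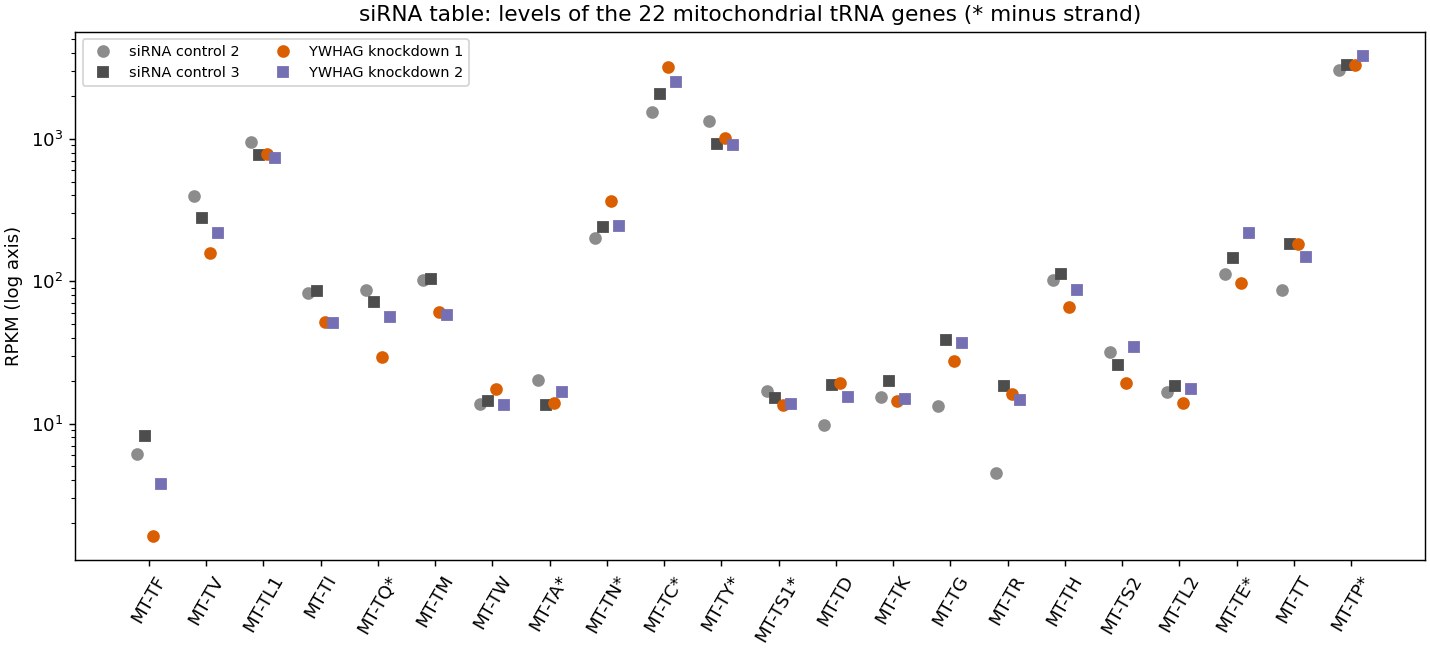
RPKM (log axis) of the 22 mitochondrial tRNA genes in the 4 libraries of the siRNA experiment, in genome order with an asterisk for minus-strand genes. MT-TP, MT-TC, MT-TY and MT-TL1 are the most abundant; the knockdown points lie below the grey control points for MT-TI and MT-TM and above them for MT-TC.

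By limma, 0 of the 37 members passed an adjusted p of 0.05 after YWHAG knockdown, as did 0 of all 13903 genes tested (0.0%), and limma voom on the recovered reads also gave 0 of 37. An unadjusted p under 0.05 was reached by 7 members, all tRNAs: MT-TC was higher, and MT-TM, MT-TI, MT-TF, MT-TV, MT-TQ and MT-TH were lower. Over all genes tested 16.4% reached it, 7.51% higher and 8.9% lower. The groups did not overlap for 12 members, 4 higher and 8 lower, against 51.2% of all genes tested (20.4% higher and 30.8% lower). The fitted log2 change was below 0 for 23 of the 37, and for 57.6% of all genes. With knockdown 2 left out 3 members passed, MT-TF, MT-TM and MT-TQ, all lower, where 5.3% of all genes passed. The smallest adjusted p of the members by limma in the fit to all 4 libraries was 0.179.

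The effects of the 2 knockdowns were compared by the difference of their log2 changes, YWHAG minus LY6K-AS, each taken within its own table. By limma 0 of the 32 members tested in both passed, against 0.179% of all genes, and none had an unadjusted p under 0.05, against 20.4% of all genes; limma voom gave 0 as well. The difference was above 0 for 26 of the 32, with a median of 0.35, against −0.04 over all 12861 genes. This lean rests largely on LY6K-AS knockdown 2. The median log2 ratio of the 32 to their control mean was −0.94 in that library and 0.13 in LY6K-AS knockdown 1. After YWHAG knockdown the median log2 change of the members was −0.05. The smallest unadjusted p was that of MT-TT, with a difference of 1.26 ± 0.61 (SE; limma adjusted p = 0.294), followed by MT-TC with 1.01 ± 0.53 (0.330). For MT-ND6 it was 0.77 ± 0.53 (0.441). With LY6K-AS knockdown 1 left out MT-TP alone passed (limma adjusted p = 0.0329), where 9.43% of all genes did.

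MT-ND6, the only mRNA of the minus strand, was set against the mRNAs of the plus strand within libraries. The ratio rests on the reads of that gene, and whether the counting used strand is not given. The log2 ratio of MT-ND6 RPKM to the mean of the 12 mRNAs of the plus strand was −1.11 and −0.996 in the LNA controls and −1.15 and −1.33 in the LY6K-AS knockdowns. In the siRNA controls it was −1.64 and −1.22, and in the YWHAG knockdowns −1.17 and −1.11. Both knockdowns lay below both controls in the LNA experiment and above them in the siRNA experiment. The differences were −0.18 and 0.29, each at the smallest p that an exact permutation test of 2 against 2 can give (two-sided p = 0.333). The difference of 0.29 was 0.08 without siRNA control 2, and that of −0.18 was −0.09 without LY6K-AS knockdown 2.

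The tRNA reads were also split by strand. Minus-strand tRNAs gave 53.1 and 55.6% of the tRNA reads in the LNA controls and 47.7 and 50.4% in the LY6K-AS knockdowns. They gave 76.5 and 79.1% in the siRNA controls and 84.1 and 83.5% in the YWHAG knockdowns. The knockdown pair lay below its controls in the first experiment and above them in the second. This comparison was made after the values were seen and was given no test. In the LNA libraries 4 of the 8 minus-strand tRNAs were listed at 0, and most minus-strand reads came from MT-TY. It gave 3598 of 4469 and 2677 of 3217 such reads in the controls, and 2039 of 2699 and 1280 of 1573 in the knockdowns. The share in the LNA libraries therefore rests mainly on that gene, whose own level is given above. In the siRNA libraries MT-TC and MT-TP together made up 55.2 and 62.4% of tRNA reads for the control pair and 67.9 and 67.8% for the YWHAG knockdown pair, against 7.87 to 10.1% in the LNA libraries. Reads from tRNA genes were 0.245 to 0.459% of the reads of the 37 genes, and reads of longer RNAs that run across a tRNA gene cannot be told apart from those of the tRNA in these counts. Where the counting did not use strand, reads from the 2 strands of a place could not be told apart either.

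The rRNA to mRNA balance also split paired libraries. The log2 ratio of summed rRNA to summed mRNA RPKM was −2.39 and −2.45 in the LNA controls and −1.998 and −2.63 in the LY6K-AS knockdowns, a difference of 0.10 (exact permutation test, two-sided, p = 1.0). It was −1.98 and −2.20 in the siRNA controls and −2.48 and −1.92 in the YWHAG knockdowns, a difference of −0.11 (p = 1.0 by the same exact test). In both experiments the controls lay between the 2 knockdown libraries. The sign of the difference turned without knockdown 1 in each, to −0.21 and 0.17. The large rRNA exceeded the small one in RPKM 8.49 to 10.4 fold over the 8 libraries.

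In the LNA experiment 5 tRNAs were listed at 0 in each of the 4 LNA libraries: MT-TQ, MT-TA, MT-TN, MT-TS1 and MT-TK, 4 of them on the minus strand. In the siRNA table the same tRNAs had 32 to 915 reads per library. Of the 13557 genes with at least 20 reads in each siRNA library, 15 (0.111%) were at 0 throughout the LNA table, and 5 of those 15 were these tRNAs. Among the other 10 was the protein-coding gene TAF9, with 382 to 714 reads in the siRNA libraries, so a 0 in the LNA table is given as listed and not as absence of the RNA. No change after LY6K-AS knockdown could be measured for these 5 tRNAs.

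Nuclear genes that act on mitochondrial DNA and RNA were read from a list of 65, all of which were tested in both experiments. After LY6K-AS knockdown 0 passed by limma (0 of all genes), 2 had an unadjusted p under 0.05 and a higher level and 16 a lower one (13.6% and 11.7% of all genes tested), and the median log2 change was −0.10 against 0.00 over all genes. The smallest p-values were those of PNPT1, SUCLG1 and SSBP1. PNPT1, the exoribonuclease of the mitochondrial degradosome, had 15.0 and 15.4 RPKM in the LNA controls and 10.4 and 8.76 in the knockdowns, a log2 change of −0.62 ± 0.11 (SE; limma adjusted p = 0.104). SUCLG1, a succinate-CoA ligase subunit linked to upkeep of mitochondrial DNA, had 22.9 and 21.9 RPKM against 17.1 and 16.7, and SSBP1, the single-strand binding protein of mitochondrial DNA, 10.9 and 10.0 against 7.77 and 6.89. In all 3 both knockdowns lay under both controls.

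POLRMT stood at 21.1 and 22.3 RPKM in the LNA controls and 25.2 and 30.1 in the LY6K-AS knockdowns, a log2 change of 0.33 ± 0.12 (SE; limma adjusted p = 0.195). TFAM, which packages mitochondrial DNA and starts its transcription, had 13.1 and 13.04 RPKM against 10.1 and 8.22 (−0.48 ± 0.12, limma adjusted p = 0.131). LRPPRC had 38.6 and 37.5 RPKM against 31.7 and 21.1, and its partner SLIRP 20.7 and 19.7 against 13.7 and 15.8. For these 3 factors, and for the elongation factor TEFM (2.95 and 3.07 against 2.32 and 2.13 RPKM), both knockdowns were under both controls, while POLRMT was above. The transcription factor TFB2M had 22.3 and 20.7 RPKM against 18.6 and 20.2, the poly(A) polymerase MTPAP 4.52 and 4.12 against 3.86 and 3.26, and the helicase SUPV3L1 8.17 and 8.21 against 6.87 and 6.26. Of the 65, 14 were higher and 32 lower without overlap, against 31.4 and 30.5% of all genes tested. LRPPRC, TFAM, PNPT1, TEFM, MTPAP and SUPV3L1 were each lower in both knockdowns and lowest in knockdown 2. SLIRP and TFB2M were instead lowest in knockdown 1, and POLRMT was highest in knockdown 2. Of the mitochondrial mRNAs MT-ND2 alone was below both controls in knockdown 1. The part of these factors in the mitochondrial levels was not tested.

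After YWHAG knockdown 0 of the 65 passed by limma, 1 was higher and 2 lower at an unadjusted p under 0.05 (7.51% and 8.9% of all genes tested), and the median was −0.04 against −0.05 over all genes. Those 3 were LACTB2, TFB2M and PDE12. LACTB2, a mitochondrial endoribonuclease, had 10.8 and 10.9 RPKM in the siRNA controls and 20.1 and 15.2 in the knockdowns (0.64 ± 0.17 SE, limma adjusted p = 0.248). TFB2M had 24.1 and 22.7 RPKM against 15.9 and 15.7 (−0.54 ± 0.13, limma adjusted p = 0.220), and PDE12, which removes poly(A) tails in mitochondria, 3.25 and 3.60 against 2.48 and 1.82. The pairs were apart for all 3. POLRMT, with 12.6 and 14.6 RPKM in the controls and 14.1 and 13.1 in the knockdowns, TFAM, LRPPRC, SLIRP, TEFM and PNPT1 had overlapping groups. MTPAP and SUPV3L1 were lower in both knockdowns than in both controls, with adjusted p-values by limma of 0.559 and 0.429. Of the 65, 14 were higher and 18 lower without overlap, against 20.4 and 30.8% of all genes tested.

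Reads from mitochondrial RNA can also be assigned to copies of mitochondrial genes in the nuclear genome. Of 401 such annotated copies, 3 had a mean of at least 10 RPKM, all on chromosome 1. MTATP6P1, a copy of MT-ATP6 at chr1:633696-634376 (hg38), had 1062 and 803 RPKM in the LNA controls and 829 and 407 in the LY6K-AS knockdowns, against 1072 and 1218 in the siRNA controls and 899 and 1139 in the YWHAG knockdowns. MTND2P28 and MTCO1P12 had 67.8 to 174 and 10.2 to 43.9 RPKM over the 8 libraries. MTATP6P1 and MTND2P28 were lowest in LY6K-AS knockdown 2 within the LNA table, as was MT-ATP6 itself. Reads of all copies equalled 0.577 to 1.16% of the reads of the 37 genes, and 0 of the 19 copies tested in the LNA table and 0 of the 20 in the siRNA table passed by limma, with 1 and 2 at an unadjusted p under 0.05, against 25.3% and 16.4% of all genes tested. How far the reads listed under a copy come from the mitochondrial original was not tested.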

How the data were processed

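RNA was sequenced in 8 A549 libraries in 4 groups of 2, and the authors deposited RPKM (reads per kilobase scaled to the library total) in 2 tables, one per experiment. Per the submitters' processing notes, the tools were STAR, featureCounts, Subread and Picard with build hg38. Their versions and roles, and the use of strand in counting, are not given in the sources used here. Multiplying the deposited RPKM by a gene length gave whole reads for 100% of values within 0.05 reads, with annotated end minus start as the length in the LNA table and merged exon length in the siRNA table. LNA values were rescaled to merged exon length, and shares were taken of the recovered totals, which also count genes that did not match GENCODE 29 (9151 of 66206 identifiers). Each knockdown was fitted with its own controls by limma 3.58.1 (R 4.3.3, lmFit and eBayes with trend) on log2(RPKM + 1), two-sided, with Benjamini-Hochberg adjustment over all genes with at least 0.5 RPKM in at least 2 of the 4 libraries. A log2 change on this scale understates that of low genes. Adjusted p-values in brackets come from that limma fit. The difference between the knockdowns used all 8 libraries. Single values per library were compared by exact permutation tests (numpy 2.4.6). The fits were tested on simulated data in which all libraries had the same spread. The LNA libraries did not, with an SD of the log2 difference of 0.16 between controls and 0.40 between knockdowns. All mRNAs and rRNAs are named, and tRNAs with at least 20 reads in each library of a table. Alternatives were other pseudocounts (0.1 and 0.5), no filter, voom, other totals, GC correction, a pooled spread, a replicate block and each library left out. The members, the list of 65 nuclear genes and the markers were chosen with earlier results of these data known. Counting error at this depth is small for mRNAs, with 3 reads equal to 0.0868 to 0.115 RPM (reads scaled to the library total).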

Additional observations from a re-analysis of the deposited data

How the results depend on the processing

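The 3 counts of members passing stayed at 0 under all the other pseudocounts, filters, totals, GC correction and voom, and changed when 1 library was left out. Over those fits the count ran from 0 to 23 for LY6K-AS, from 0 to 3 for YWHAG and from 0 to 1 for the difference between them. With 1 library left out, the difference in share of reads ran from −3.31 to 0.943 percentage points for LY6K-AS and from −2.76 to 1.46 for YWHAG. The log2 rRNA to mRNA difference ran from −0.21 to 0.42 and from −0.39 to 0.17. The MT-ND6 ratio kept its sign, from −0.27 to −0.09 and from 0.08 to 0.50. In the LY6K-AS comparison the change of MT-RNR1 ran from −0.92 to 0.72 and that of MT-RNR2 from −1.02 to 0.48, and after removal of a GC trend MT-RNR1 stood at 0.00996. In the YWHAG comparison they ran from −0.56 to 0.26 and from −0.55 to 0.24, and MT-ND6 ran from −0.14 to 0.61. The cause of these turns was not tested beyond the libraries left out. Over all genes, the count for the difference between the knockdowns was 17 higher and 6 lower, against 3 and 2 with totals free of mitochondrial reads, 1 and 4 without a filter, 30 and 4 by voom and 29 and 15 with the RPKM as deposited. With the spread pooled over 8 libraries 25 genes were higher and 39 lower after LY6K-AS knockdown, and 140 and 74 after YWHAG knockdown, with 0 members among them. For YWHAG, genes at an unadjusted p under 0.05 were 1044 higher and 1237 lower, against 1277 and 917 with median-ratio size factors and 1328 and 999 with the GC trend removed.

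With the labels' replicate number as a replicate block in the LNA table, 0 members passed. The differences in share, MT-ND6 ratio and rRNA ratio stay at −1.18, −0.18 and 0.10 by construction, since each group holds both numbers. Same-numbered libraries deviated together with r = 0.08 over 14662 genes, and the numbers were not taken to pair the libraries. This r does not settle the matter, since the 2 knockdowns may also differ by oligonucleotide. In the share of mitochondrial reads library 1 exceeded library 2 in both pairs, with 8.43 against 6.43% in the LNA controls and 8.37 against 4.12% in the knockdowns. In the siRNA table, and so for the difference between the knockdowns, no such block could be fitted, because the control columns there carry other numbers than the labels.

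Pairs of libraries limit what can be seen: no permutation of 2 against 2 goes below 0.333. Depth limits the rarer tRNAs, several of which had under 50 reads per library, and does not limit the mRNAs.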
